A study of Mus musculus with 4 samples.

Results

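The Krüppel-like factors (KLFs) described here are 10 genes, Klf2, Klf3, Klf4, Klf5, Klf6, Klf7, Klf9, Klf10, Klf11 and Klf13, taken by symbol from the 23420 gene rows of a mouse RNA-seq count table. Total RNA came from 2 keratinocyte lines, MK2 and MK1, with 2 biological replicates of each, and the design allows the comparison of MK2 with MK1. The labels name no strain, sex, passage, medium, treatment or genetic change for either line, so the groups stand for these lines alone. Each line is a single model, and p-values refer to the spread between its replicates and not to keratinocyte lines in general. All 10 genes passed the low-count filter, and each had at least 31 counts in every library.

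KLFs are transcription factors that bind GC-rich and CACCC-type DNA through a conserved block of zinc fingers at the C-terminus. Family members differ in the proteins that their N-termini recruit, which gives an activating group (here Klf2, Klf4, Klf5, Klf6 and Klf7), a group that binds the corepressor CtBP (here Klf3) and a group that binds the corepressor SIN3A (here Klf9, Klf10, Klf11 and Klf13). In the epidermis Klf4 is required for barrier formation and is found in differentiating layers, Klf5 is found in proliferating basal cells, and Klf9 is a glucocorticoid- and clock-controlled gene of keratinocytes. SP factors share the zinc-finger block and the DNA sequences bound.

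Upstream sequences of 4 members are shown, with KLF- and SP-type motifs marked, because they frame the main contrast. They are Klf4, which was higher in MK2, Klf6, the most abundant member over both lines, and Klf9 and Klf2, which had the largest decreases. Sequences are RefSeq's on GRCm38.p6 (mm10), read 5′ to 3′ on the gene's strand and ending next to the transcription start, or next to an annotated GENCODE exon further upstream. Klf4 is chr4:55532476-55532725 (minus strand), Klf6 chr13:5861239-5861481 (plus), Klf9 chr19:23140976-23141225 (plus) and Klf2 chr8:72318812-72319032 (plus). Capitals mark the GC box GGGCGG and the CACCC box CACCC on either strand (CCGCCC and GGGTG on the other).
Klf4: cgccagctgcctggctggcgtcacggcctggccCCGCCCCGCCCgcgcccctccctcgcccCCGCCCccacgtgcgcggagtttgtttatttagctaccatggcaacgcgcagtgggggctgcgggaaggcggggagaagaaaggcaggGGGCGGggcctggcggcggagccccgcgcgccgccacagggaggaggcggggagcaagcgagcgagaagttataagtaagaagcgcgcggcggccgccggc
Klf6: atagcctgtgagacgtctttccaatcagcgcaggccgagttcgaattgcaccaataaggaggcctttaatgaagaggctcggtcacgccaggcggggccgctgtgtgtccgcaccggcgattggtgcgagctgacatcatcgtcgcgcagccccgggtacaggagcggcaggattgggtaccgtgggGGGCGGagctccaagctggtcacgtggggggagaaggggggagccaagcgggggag
Klf9: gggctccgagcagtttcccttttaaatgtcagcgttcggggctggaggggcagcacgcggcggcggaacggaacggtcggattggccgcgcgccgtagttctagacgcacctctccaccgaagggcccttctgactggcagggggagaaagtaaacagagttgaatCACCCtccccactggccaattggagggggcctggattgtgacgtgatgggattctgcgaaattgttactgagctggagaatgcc
Klf2: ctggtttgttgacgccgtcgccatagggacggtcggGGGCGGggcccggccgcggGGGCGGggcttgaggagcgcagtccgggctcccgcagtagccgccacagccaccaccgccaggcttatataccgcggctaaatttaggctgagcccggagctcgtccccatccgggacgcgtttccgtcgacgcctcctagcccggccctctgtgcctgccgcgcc

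Of the 10 genes, 8 had a RefSeq promoter window, and motifs were searched on both strands in the 250 bases before the start. GC boxes lay in 7 of these 8 windows, against 32.7% of all 32851 mouse windows. Klf4 held 4 of them, of which the pair at 217 and 212 bases before the start share a base. Klf9 held no GC box and held 1 CACCC box, 84 bases before the start. CACCC boxes lay in 5 of 8 windows (52.0% of all), CCAAT boxes (CCAAT) in 4 (33.8% of all) and the TATA box TATAAA in 0 (12.4% of all). The E-box CACGTG, a site type used by clock factors and MYC, lay in the windows of Klf4, Klf6 and Klf11, against 6.02% of all windows. GC content of the 8 windows ran from 59.2% (Klf7) to 78.4% (Klf3), and the shares of all windows were not matched for it. A match describes the letters and is no evidence of binding.

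Transcripts of the 10 KLF genes were mostly lower in MK2, and Klf4 alone was called higher. Klf16, a KLF gene outside the 10, also rose (log2 fold change 0.95, described below). With p adjusted and held under 0.05, 8 of 10 genes were lower in MK2, against 28.6% of the 12479 genes tested, and 1 was higher, against 25.9% (quasi-likelihood F test in edgeR, with p adjusted over all tested genes by Benjamini-Hochberg), so that 9 of 10 were called in either direction, against 54.6%. DESeq2 gave the same 8 lower and 1 higher. The median log2 fold change, MK2 minus MK1, was -0.62 over the 10 genes and -0.01 over all tested genes. Libraries of the lines did not overlap for 9 genes, with both MK2 libraries below both MK1 libraries for 8 (40.9% of tested genes) and above for Klf4 (39.5% of tested genes).

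The changes were moderate in size. Beyond a 2-fold difference, 0 of 10 genes passed glmTreat, edgeR's test against a fold threshold (13.3% of all tested genes passed), with Klf9 reaching an unadjusted p under 0.05 (1 gene). DESeq2's test against the same threshold called 0, and 0 at an unadjusted p under 0.05. Without MK2 replicate 1, Klf9 passed glmTreat (1 gene). The lower calls of Klf7, Klf9, Klf10 and Klf11 and the higher call of Klf4 were kept in all 12 settings run, whereas the count of lower genes was 4 without MK1 replicate 1, when Klf2, Klf5, Klf6 and Klf13 lost their calls.

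**Figure D1:**
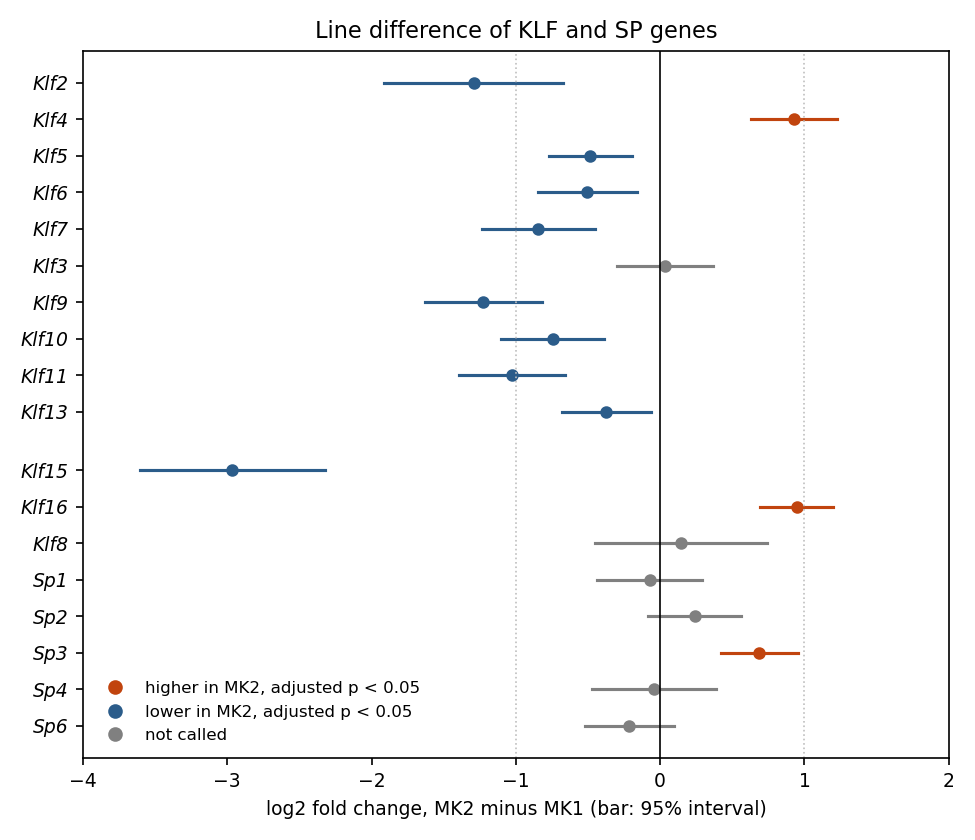
Log2 fold change, MK2 minus MK1, for the 10 KLF genes (upper block) and the other KLF and SP genes with 1 CPM or more in either line (lower block); points are edgeR estimates, bars 95% intervals, dotted lines 2-fold. Klf4 lies at 0.93 on the right, Klf3 at 0.03, and the other 8 KLF genes between -1.29 and -0.37.

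Klf4 was the KLF gene that rose. It stood at 159 and 141 CPM (counts per 1e6 counts of the library, scaled by TMM, edgeR's method for composition differences) in the MK2 replicates, against 84.7 and 73.0 CPM in the MK1 replicates. Both MK2 replicates lay above both MK1 replicates, and the gap between the lines exceeded the gap between replicates of a line. The SD was 13.1 CPM in MK2 and 8.27 CPM in MK1, where n = 2 replicates a line for all SDs given. The log2 fold change was 0.93 with a standard error of 0.12, or 1.90-fold (edgeR adjusted p = 0.00117). The gene (ENSMUSG00000003032.8) lies on chromosome 4, 55527137 to 55532475 of mm10 on the minus strand.

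Klf5, the factor of basal epithelial cells, moved the other way. It had 34.8 and 34.3 CPM in MK2, against 52.5 and 44.3 CPM in MK1, a log2 fold change of -0.48 ± 0.12 (SE; edgeR adjusted p = 0.0141). The MK2 replicates were almost equal, and both lay below the lower MK1 replicate. Its call ended without MK1 replicate 1 (log2 fold change -0.36, edgeR adjusted p = 0.130). Klf5 lies on chromosome 14, 99298691 to 99313409 on the plus strand.

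Klf6, an early-response factor that was first described as a regulator of the core promoter of other genes, had the highest CPM of the family in both lines. It had 188 and 222 CPM in MK2, against 322 and 260 CPM in MK1. The replicates did not overlap, but those of each line differed widely, with SDs of 24.2 CPM in MK2 and 43.8 CPM in MK1. The log2 fold change was -0.50 ± 0.14 (SE; edgeR adjusted p = 0.0235). Its call ended without MK1 replicate 1 (log2 fold change -0.34, edgeR adjusted p = 0.179) and without MK2 replicate 1 (-0.38, edgeR adjusted p = 0.0597). Klf6 lies on chromosome 13, 5861489 to 5870393 on the plus strand.

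Klf7, best known from the development of neurons, had 5.32 and 5.501 CPM in MK2, against 9.57 and 9.90 CPM in MK1. Replicates of each line lay close together, and the log2 fold change was -0.85 ± 0.16 (SE; edgeR adjusted p = 0.00519). The deposited gene model of Klf7 holds 1336 bases of exon, whereas the longest GENCODE transcript on the same build has 7662, and the rest of that transcript lies outside the model that was counted. Klf7 lies on chromosome 1, 64035671 to 64121389 on the minus strand.

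Klf2, a factor of endothelial cells and lymphocytes, was the rarest member and had the largest fold difference by point estimate. Its counts were 31 and 31 in MK2, or 1.23 and 1.09 CPM, against 95 and 69 counts in MK1, or 3.12 and 2.57 CPM. The log2 fold change was -1.29 ± 0.26 (SE; edgeR adjusted p = 0.00604), which corresponds to 2.45-fold lower in MK2. The 95% interval of Klf2, -1.914 to -0.673, overlapped that of Klf9, -1.633 to -0.821. Without MK2 replicate 1 the estimate was -1.375 for Klf2 and -1.435 for Klf9, so the rank between them is not settled. The Klf2 call ended without MK1 replicate 1 (log2 fold change -1.15, edgeR adjusted p = 0.0693). Klf2 lies on chromosome 8, 72319062 to 72321654 on the plus strand.

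B-lymphocyte transcripts were lower in MK2 along with Klf2. All 4 tested of 5 B-lymphocyte markers were called lower, against 28.6% of all tested genes. These 4 passed the low-count filter through MK1 alone, so their direction was set by the filter and the comparison with that share carries no information. The summed level of the list was 0.119 and 0.0353 CPM in MK2, against 9.83 and 10.7 CPM in MK1. Cd79b and Ms4a1 had 0 counts in both MK2 libraries. None of 5 T-lymphocyte markers was tested (summed level 0.106 to 0.238 CPM in MK2 and 0.164 to 0.484 CPM in MK1). Of 6 endothelial markers, Cdh5 and Emcn had 0 counts in every library, and the summed level of the list, nearly all of it Kdr, was 25.4 and 27.4 CPM in MK2, against 17.8 and 15.04 CPM in MK1. Their part in the Klf2 difference was not tested, and in bulk samples fewer cells of a type and less RNA per cell cannot be told apart.

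Klf3, the member that binds CtBP, did not pass the test. It had 45.1 and 47.2 CPM in MK2, against 50.4 and 39.7 CPM in MK1. The MK2 values lay inside the range of the MK1 values. The log2 fold change was 0.03, with a 95% interval of -0.30 to 0.36 (edgeR adjusted p = 0.853), and its sign turned with upper-quartile scaling (-0.02) and without MK1 replicate 2 (-0.13). In GENCODE, 269 bases of the deposited Klf3 exons overlap the opposite-strand transcript Gm20033, and reads of both cannot be told apart where counting did not use strand. Klf3 lies on chromosome 5, 64803523 to 64830129 on the plus strand.

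All 4 SIN3A-binding genes of this set were lower in MK2, as were 4 of 5 in the activating group, against 28.6% of all tested genes. SIN3A-binding KLF genes did not all fall, since Klf16, which lies outside this set and is described below, rose (log2 fold change 0.95, edgeR adjusted p = 5.80e-04). The lower call of Klf13 was not kept in every setting run. Klf9, a hormone-responsive repressor, had 34.8 and 26.4 CPM in MK2, against 78.9 and 64.2 CPM in MK1. The lines were well apart, and the log2 fold change of -1.23 ± 0.17 (SE; edgeR adjusted p = 0.00136) made MK2 2.34-fold lower. Klf9 lies on chromosome 19, 23141226 to 23166911 on the plus strand.

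Klf10 and Klf11 are known as TGF-beta-inducible early genes. Klf10 had 54.3 and 72.8 CPM in MK2, against 106 and 107 CPM in MK1. Here the MK1 replicates were close and the MK2 replicates uneven, and the log2 fold change was -0.75 ± 0.15 (SE; edgeR adjusted p = 0.00611). Klf11 had 11.0 and 12.4 CPM in MK2, against 25.9 and 21.9 CPM in MK1, with a log2 fold change of -1.03 ± 0.15 (SE; edgeR adjusted p = 0.00187). Klf11 was thus 2.04-fold lower in MK2, with no overlap of replicates. Klf10 lies on chromosome 15, 38294413 to 38300707 on the minus strand, and Klf11 on chromosome 12, 24651371 to 24662782 on the plus strand.

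Klf13, a regulator of chemokine expression in T lymphocytes, had the smallest called difference. It had 133 and 107 CPM in MK2, against 157 and 155 CPM in MK1, a log2 fold change of -0.37 ± 0.13 (SE; edgeR adjusted p = 0.0455). The difference between the MK2 replicates, 0.31 on the log2 scale, was close to the difference between the lines. Its call ended without MK1 replicate 1 (edgeR adjusted p = 0.184), without MK1 replicate 2 (edgeR adjusted p = 0.156) and without MK2 replicate 2 (edgeR adjusted p = 0.136, log2 fold change -0.22). Klf13 lies on chromosome 7, 63886351 to 63938915 on the minus strand.

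**Figure D2:**
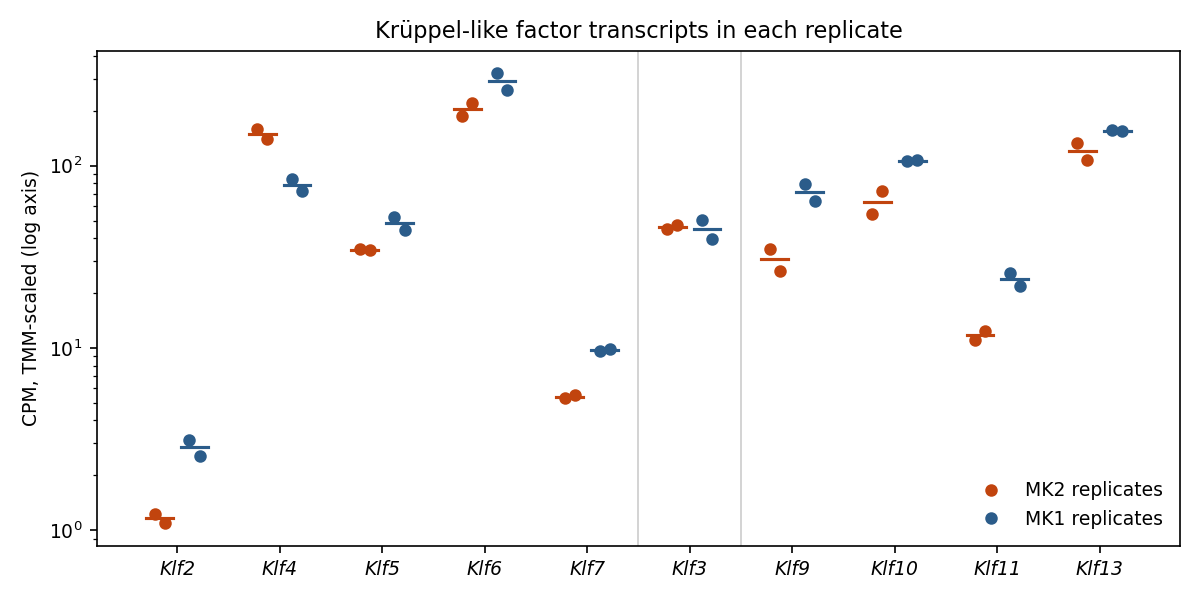
Level of each KLF gene in CPM on a log axis, with 1 point per replicate and a bar at the mean of each line; thin lines separate the activating, CtBP-binding and SIN3A-binding groups. MK2 points lie below MK1 points for 8 genes, above them for Klf4 (159 and 141 CPM against 84.7 and 73.0 CPM), and among them for Klf3.

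Per unit of gene length, Klf4 and Klf6 had the highest levels of the family in MK2, and Klf6 alone in MK1. TPM (transcripts per 1e6, computed with the deposited gene lengths) averaged 98.6 ± 9.93 for Klf4 and 97.1 ± 10.2 for Klf6 in MK2, and these did not differ beyond the spread of the replicates. Klf10, Klf5, Klf3 and Klf13 followed between 41.7 and 37.6 TPM with overlapping neighbours. Klf9 (18.8 TPM), Klf7 (8.10 TPM), Klf11 (5.89 TPM) and Klf2 (1.28 TPM) were each separate from the next. In MK1 Klf6 led with 144 ± 24.1 TPM, separate from Klf10 at 73.3 ± 0.693 TPM. Klf5, Klf4, Klf13, Klf9 and Klf3 formed a run from 58.7 to 40.8 TPM in which each overlapped the next, followed by Klf7 (15.3 TPM), Klf11 (12.6 TPM) and Klf2 (3.28 TPM). Deposited exon lengths were 2314 bases for Klf3 and 1725 for Klf5, against 5221 and 3352 in the longest GENCODE transcripts, so the order between genes depends on the gene models.

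The summed level of the 10 genes was 389 ± 1.73 TPM in MK2 and 500 ± 57.6 TPM in MK1, a ratio of 0.779. Klf4 made up 25.3 ± 2.44% of that sum in MK2 and 10.9 ± 0.0611% in MK1. Klf9 made up 4.83 ± 0.986% in MK2 and 9.17 ± 0.428% in MK1, and Klf10 10.7 ± 2.11% in MK2 and 14.8 ± 1.56% in MK1. Klf6 made up 24.97 ± 2.73% in MK2 and 28.8 ± 1.498% in MK1, and Klf5 10.3 ± 0.196% in MK2 and 11.7 ± 0.240% in MK1. The Klf4 share was higher in both MK2 replicates than in either MK1 replicate, and the Klf9 share was lower. These shares were described without a test.

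**Figure D3:**
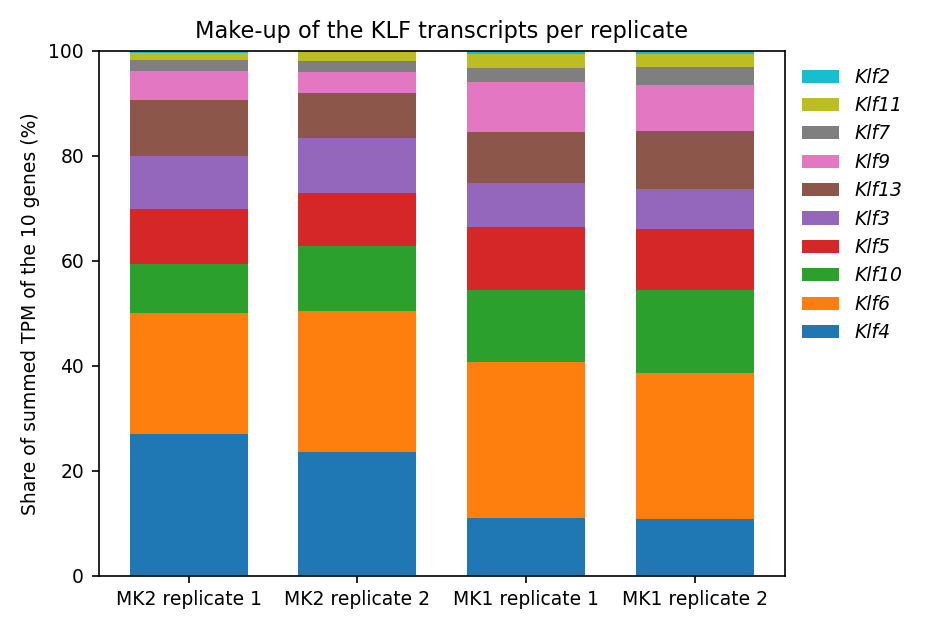
Share of each KLF gene in the summed TPM of the 10 genes, in percent, 1 stacked bar per replicate. Klf4 (lowest segment) takes 27.1% and 23.6% in the MK2 replicates and 10.9% and 10.8% in the MK1 replicates.

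Differences of the KLF genes were set beside those of their neighbours, up to 25 tested genes on each side on the same chromosome. Windows were set by gene number and not by distance, and for Klf5 reached from 76110891 to 119099434 of chromosome 14. The 50 neighbours of Klf4 lay between 47091953 and 62426990 of chromosome 4, with a median of 0.89 on the log2 scale. Of these, 38 were called higher and 2 lower in MK2, against 25.9% and 28.6% of all tested genes. The value of Klf4 itself was 0.93. Klf4 thus lay within the quartiles of its surroundings, 0.45 to 1.23, and the part of the surroundings in the Klf4 difference was not tested. Neighbours of Klf2, Klf7, Klf9 and Klf10 had medians of 0.27, 0.30, 0.01 and 0.06, while these 4 KLF genes had log2 fold changes of -1.29, -0.85, -1.23 and -0.75. Neighbours of Klf5, Klf6, Klf11 and Klf13 had medians of -0.22, -0.38, -0.19 and -0.27, so these 4 genes and their surroundings had the same sign. Klf5, Klf6 and Klf13 lay within the quartiles of their neighbours, and Klf11 below them.

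**Figure D4:**
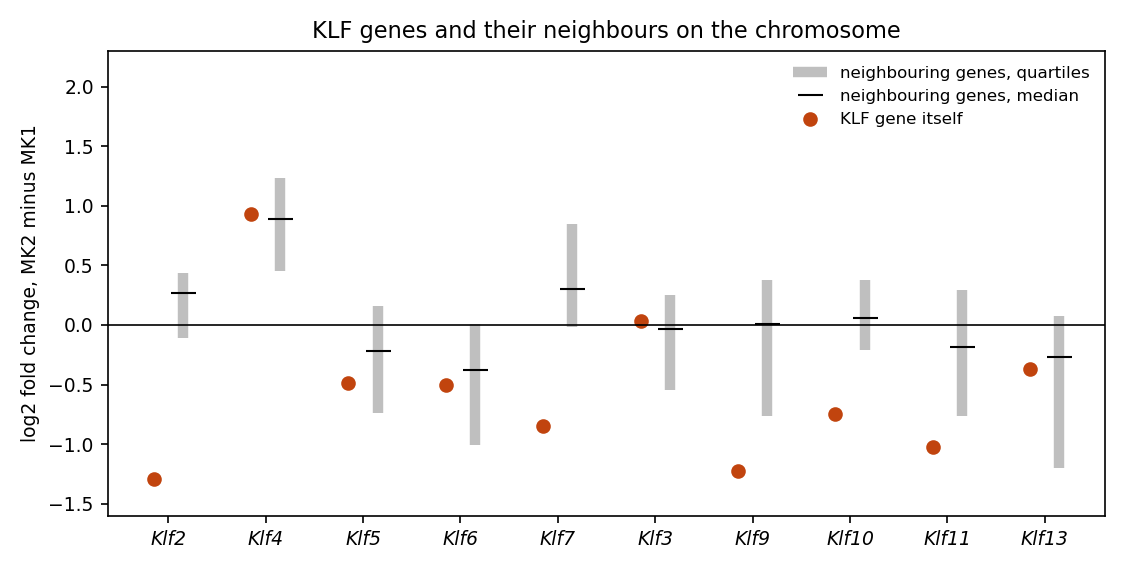
Log2 fold change, MK2 minus MK1, of each KLF gene (points) beside the median (black dash) and quartiles (grey bar) of up to 25 tested genes on each side. Klf4 at 0.93 sits at the level of its neighbours (median 0.89), whereas Klf2, Klf7, Klf9, Klf10 and Klf11 lie below the lower quartile of theirs.

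Of the 7 other KLF genes in the table, 3 had enough counts to be tested. Klf15, a glucocorticoid-induced metabolic regulator, had 1.39 and 0.882 CPM in MK2, against 8.12 and 9.57 CPM in MK1. It fell by 2.97 on the log2 scale (SE 0.27, edgeR adjusted p = 2.56e-04), was 7.81-fold lower in MK2, and passed glmTreat (edgeR adjusted p = 9.52e-04). Klf16, a SIN3A-binding repressor, rose, with 49.1 and 50.5 CPM in MK2, against 25.1 and 26.6 CPM in MK1 (log2 fold change 0.95 ± 0.11 SE, edgeR adjusted p = 5.80e-04). The median of the 50 neighbours of Klf16 was -0.33. Klf8, which binds CtBP as Klf3 does, had 1.67 and 1.73 CPM in MK2, against 1.55 and 1.53 CPM in MK1, and was not called (95% interval of the log2 fold change -0.45 to 0.74, edgeR adjusted p = 0.648). Klf14 and Klf17 had 0 counts in all 4 libraries.

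Among 9 SP genes, 5 were tested and 1 was called, against 54.6% of all tested genes called in either direction. Sp3 rose, with 144 and 135 CPM in MK2, against 81.4 and 92.1 CPM in MK1 (log2 fold change 0.69 ± 0.11 SE, edgeR adjusted p = 0.00257). Sp1, the ubiquitous GC-box activator, had 138 and 102 CPM in MK2, against 125 and 127 CPM in MK1, with the MK2 replicates on either side of MK1. The 95% intervals of the log2 fold change were -0.44 to 0.29 for Sp1, -0.08 to 0.56 for Sp2, -0.47 to 0.39 for Sp4 and -0.52 to 0.09 for Sp6, a factor of epithelial appendages. Sp5 and Sp7 had 0 counts in every library.

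Genes of pathways known to act on KLF genes were examined as lists. Of 9 glucocorticoid-response genes, 5 fell and 0 rose at an adjusted p under 0.05 (edgeR; 28.6% and 25.9% over all tested genes), with a median log2 fold change of -0.62. At an unadjusted p under 0.05 Dusp1 was also lower and 0 genes were higher, and DESeq2 called 0 higher. Ddit4, an inhibitor of mTOR signalling, had 18.0 and 16.0 CPM in MK2, against 237 and 204 CPM in MK1 (log2 fold change -3.70). Tsc22d3, the glucocorticoid-induced leucine zipper, had 104 and 91.0 CPM in MK2, against 573 and 564 CPM in MK1 (log2 fold change -2.54). Errfi1, a feedback inhibitor of EGFR, had a log2 fold change of -1.68. Chosen after their values were seen, the others that fell were Nr3c1, the glucocorticoid receptor gene (-0.55), and Fkbp5, a chaperone gene induced by the receptor (-0.80). With MK2 replicate 1 left out, 1 gene of the list rose. The labels state no hormone in the medium.

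Of 15 tested clock genes, 8 fell and 2 rose, against 28.6% lower and 25.9% higher over all tested genes, with a median of -1.15. Hlf, a PAR-bZIP factor, had 2.86 and 1.31 CPM in MK2, against 34.1 and 33.2 CPM in MK1 (log2 fold change -4.03), and its relative Dbp had 0.437 and 0.670 CPM in MK2, against 8.85 and 7.78 CPM in MK1 (-3.89). Without MK2 replicate 1 the log2 fold change of Hlf was -4.68. Bhlhe41, a clock repressor, had a log2 fold change of -1.85. Chosen after their values were seen, the genes that rose were Arntl, which encodes BMAL1 (log2 fold change 0.53), and Nfil3, which represses PAR-bZIP targets (1.06). The count of higher clock genes was 0 without MK1 replicate 1. The labels give no time of harvest.

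Of 12 tested immediate-early genes, which respond to serum and growth factors, 7 fell and 2 rose (28.6% and 25.9% of all tested genes), with a median of -0.43. Egr1, a zinc-finger factor, had 7.79 and 3.74 CPM in MK2, against 44.8 and 19.99 CPM in MK1 (log2 fold change -2.50), with wide spread within each line. Its log2 fold change was -1.80 without MK1 replicate 1 and -3.11 without MK2 replicate 1. Jun (0.44) and Myc (0.31), chosen after their values were seen, were the genes that rose. Btg2 and Zfp36, which act on mRNA decay, had log2 fold changes of -2.21 and -0.91. When libraries were left out, 3 genes fell without MK1 replicate 1, MK1 replicate 2 or MK2 replicate 1, and 0 rose without MK1 replicate 1 or MK1 replicate 2 and 1 without MK2 replicate 2. DESeq2 called 4 lower.

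TGF-beta signalling, which is known to induce Klf10 and Klf11, was measured through 12 genes. Of these, 4 rose and 1 fell, with a median of 0.10. Over all tested genes 25.9% rose and 28.6% fell, so the higher count is near that of all genes. Tgfbr1, the type I receptor, had 72.2 and 71.6 CPM in MK2, against 25.03 and 26.0 CPM in MK1 (log2 fold change 1.49), and the inhibitory Smad7 had a log2 fold change of 0.85. Smad7 lost its call without MK1 replicate 1 (edgeR adjusted p = 0.148), MK1 replicate 2 (edgeR adjusted p = 0.103) or MK2 replicate 2 (log2 fold change 0.41, edgeR adjusted p = 0.0536). Smad2 (0.31) and Tgif1 (0.70), chosen after their values were seen, were the others that rose. The higher count was 1 without MK1 replicate 1, MK1 replicate 2 or MK2 replicate 2. The lower count was 0 without MK1 replicate 2, 2 without MK2 replicate 1, and 4 without MK2 replicate 2.

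The MEK5-ERK5-MEF2 cascade is known to induce Klf2 and Klf4. Of 7 tested genes of this cascade, 2 fell and 0 rose (0 at an unadjusted p under 0.05, and 0 higher with DESeq2), with a median of -0.19. The lower share equals the 28.6% of all tested genes, and 25.9% of all were higher. Mapk7, which encodes ERK5, had 33.0 and 35.0 CPM in MK2, against 45.6 and 46.9 CPM in MK1 (log2 fold change -0.44, edgeR adjusted p = 0.0109). Mef2c, a MADS-box factor gene chosen after its value was seen, had 0 and 1 counts in MK2, against 24 and 16 counts in MK1. Mef2c passed the low-count filter through MK1 alone, so its direction was set by the filter. With a minimum count of 50 the count of lower genes was 1. With MK1 replicate 1 or MK1 replicate 2 left out, the count of lower genes was 1 and Mapk7 lost its call (edgeR adjusted p = 0.0745 and 0.0847).

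Epidermal genes, in part known KLF targets, changed in both directions. Of 12 tested differentiation genes, 5 rose and 5 fell, against 25.9% and 28.6% of all tested genes, with a median of -0.04. Some passed the low-count filter through 1 line alone, so their direction was set by the filter. Chosen after their values were seen, these were Lor (19 and 27 counts in MK2, 0 and 2 in MK1) and Dsg1a (25 and 14 in MK2, 1 and 2 in MK1), which rose. Pdzk1ip1, which fell, passed through MK1 alone. With a minimum count of 50, 3 genes rose and 4 fell. Ivl, the envelope protein involucrin, had 48.7 and 66.6 CPM in MK2, against 11.7 and 9.16 CPM in MK1 (log2 fold change 2.46). Dsp, the desmosomal plakin desmoplakin, had 871 and 689 CPM in MK2, against 1442 and 1296 CPM in MK1 (log2 fold change -0.81). Pdzk1ip1, a small membrane protein, had 2 and 0 counts in MK2, or 0.0795 CPM in the first replicate, against 11.6 and 19.8 CPM in MK1. Chosen after their values were seen, Krt10 (0.86) and Tgm1 (1.61), the suprabasal keratin and the transglutaminase of the envelope, also rose, and the envelope plakin gene Ppl (-0.81) fell. Levels of Krt10 and Tgm1 were low. Krt10 averaged 4.065 CPM in MK2 and 2.237 CPM in MK1, and DESeq2 did not call it (DESeq2 adjusted p = 0.056). Tgm1 averaged 2.214 CPM in MK2 and 0.735 CPM in MK1. Leaving out MK1 replicate 1 gave 2 that rose and 2 that fell.

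Of 12 tested epidermal transcription factors, 4 rose and 5 fell, with a median of -0.37, and over all tested genes 25.9% rose and 28.6% fell. Cebpa, a factor of the basal-to-spinous switch, had 0.516 and 0.776 CPM in MK2, against 11.0 and 9.64 CPM in MK1 (log2 fold change -3.98). Elf3, an epithelial ETS factor, had 1.15 and 2.04 CPM in MK2, against 24.0 and 24.2 CPM in MK1 (log2 fold change -3.90), and its relative Ehf had 1 count in each MK2 library, against 7.20 and 2.83 CPM in MK1. Those that rose, named after their values were seen, were Cebpb (1.402), Gata3 (2.00), Ovol1 (0.93) and Grhl1 (0.48). The count that rose was 1 without MK1 replicate 1 and 2 without MK1 replicate 2.

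Of 10 genes reported as KLF5 targets in other cell systems, 6 fell and 2 rose (28.6% and 25.9% over all tested genes), with a median of -0.38. Fgfbp1, a carrier of FGFs, had 221 and 262 CPM in MK2, against 699 and 783 CPM in MK1 (log2 fold change -1.62). Notch1 had a log2 fold change of -0.85, and the kinase gene Pim1 one of 0.89. With MK1 replicate 1 left out, 2 fell and 0 rose, and both Notch1 (edgeR adjusted p = 0.126) and Pim1 (edgeR adjusted p = 0.0526) lost their calls. With MK1 replicate 2 left out, 3 fell.

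**Figure D5:**
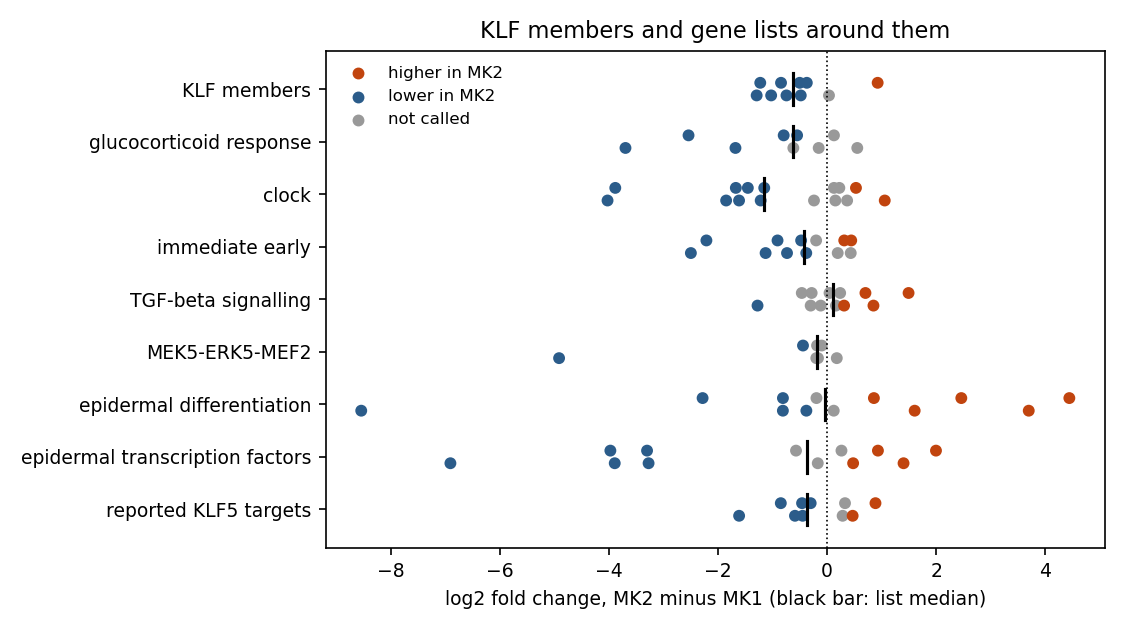
Log2 fold change, MK2 minus MK1, of each tested gene in the KLF set and in the 8 lists around it; red points are called higher and blue points called lower in MK2 (adjusted p under 0.05), grey points are not called, black bars medians. Medians lie at -0.62 for the KLF genes, -1.15 for clock genes, -0.62 for glucocorticoid-response genes and 0.10 for TGF-beta signalling genes.

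The genes whose levels over the 4 libraries lay nearest to those of Klf6, by Euclidean distance of log2 CPM, were Ddr1 (distance 0.13), Serinc1 (0.24 from Klf6) and Ogdh (0.25 from Klf6). Over 4 libraries many genes can lie this near, so the distances describe these libraries alone.

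Libraries held 25237391 to 30261111 counts. Both lines carried basal keratinocyte transcripts, with the summed level of Krt5, Krt14, Trp63, Itga6, Itgb4 and Col17a1 at 20940 and 18020 CPM in MK2 and 21700 and 21420 CPM in MK1. Most of this sum was Krt5 and Krt14. Of the 6 genes, 1 was called higher (Itga6, log2 fold change 0.83) and 1 lower (Col17a1, -1.06), against 25.9% and 28.6% of all tested genes. Of 8 fibroblast markers, 7 were under 1 CPM in both lines, and Dcn and Lum had 0 counts in every library. The remaining one, Pdgfra, was called lower, with 0.318 and 0.987 CPM in MK2, against 3.22 and 2.53 CPM in MK1 (log2 fold change -2.11, edgeR adjusted p = 0.00800). Melanocyte markers summed to 2.98 and 3.28 CPM in MK2 and 2.70 and 2.68 CPM in MK1, and 4 measured myeloid markers to 2.304 and 3.35 CPM in MK2 and 19.0 and 16.2 CPM in MK1, most of it Cd68, a lysosomal gene. Both tested myeloid markers, Cd68 and Csf1r, were called lower in MK2, against 28.6% of all tested genes. Csf1r had 2 and 4 counts in MK2, against 25 and 16 counts in MK1, and passed the low-count filter through MK1 alone. Its direction was thus set by the filter, and its call adds nothing to that comparison.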

How the data were processed

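Raw read counts per gene were used as deposited by the authors, not normalised. Per the file headers, featureCounts 1.4.6-p4 assigned reads to exons of the UCSC mm10 annotation, with no option for strand or multiple alignments; the submitters' processing notes give featureCounts as 1.5.0 and also list DESeq2 1.10.1 and the aligners Bowtie2 2.2.6 and TopHat2 2.0.13. Exon lengths in bases were a column of the deposited table. Columns were matched to samples by title (0 columns unmatched); the command in the header calls the alignment files MK and MKU, whereas the columns and labels say MK1 and MK2.

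Differences between the lines came from edgeR 4.0.16, run in R 4.3.3 (filterByExpr, minimum count 10; TMM; quasi-likelihood F test, two-sided; Benjamini-Hochberg over 12479 genes at 0.05; glmTreat at a log2 fold change of 1). Standard errors are the log2 fold change over the root of F. DESeq2 1.42.0, scalings, filters, left-out libraries and a replicate block were alternatives. The procedure was tested on simulated data. Replicates differed beyond counting noise (median chi-square per gene 4.28 in MK2 and 2.88 in MK1).

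Members and lists were chosen with earlier results of these data known. Genes named beside the 10 were other KLF and SP genes at 1 CPM or more and the 3 genes nearest to the most abundant member. Each list added up to 3 called genes at 5 CPM or more with the largest changes. Any other gene named with a value, cell type markers among them, was chosen after its values were seen, even where this is not said beside it. Some genes of the lists are not reported here by name. Intervals cover the spread between replicates, and zero counts limit a level to 3 counts of the library total, 0.0991 to 0.119 CPM, for counting error only. Motifs were sought in RefSeq promoter windows, whose bases after the start were found in GENCODE transcripts of the 8 genes in the orientation given.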

Additional observations from a re-analysis of the deposited data

How the results depend on the processing

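Over 110 alternative fits of the 10 KLF genes, 99 kept direction and call. Leaving out each library in turn gave 4 to 7 lower KLF genes, 0 to 1 beyond 2-fold, 38 to 72 called genes over the 12 lists, and 1527 to 3222 higher and 2189 to 3625 lower among all genes; the lowest counts of calls came without MK1 replicate 1. Fewer samples remain in such fits. Log2 fold changes then ran from -1.43 to -1.15 for Klf2, -0.60 to -0.36 for Klf5, -0.65 to -0.34 for Klf6, -0.53 to -0.22 for Klf13 and -0.13 to 0.21 for Klf3. Klf3 was at -0.024 with upper-quartile scaling; the cause was not tested. Sp1 (-0.30 to 0.13) and Sp4 (-0.19 to 0.10) also changed sign among these fits. Of 703 fits for other genes and list counts, 645 stayed the same. For genes this means that direction and call were kept. For list counts it means a count within 1.5-fold of the main one, so single calls could still change. Scaling alternatives moved the median of all genes to at most -0.07.

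Replicate numbers are shared between the lines by name alone. Same-numbered replicates deviated with a correlation of -0.151 across genes. With the replicate block, 2733 genes were higher and 3175 lower, 6 KLF genes were lower, and Klf6 (-0.50, edgeR adjusted p = 0.0544) and Klf13 (-0.38, edgeR adjusted p = 0.0560) were not called. Immediate-early genes then numbered 3 lower and 1 higher. The crossed pairing, chosen after seeing the data, gave 3568 higher and 3886 lower genes. Depth limits Klf2 most, at 31 counts in each MK2 library.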

Other observations

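Genes whose proteins bind or modify KLF proteins were measured in both lines and belong to no comparison above. Of 10 cofactor genes, 3 rose and 3 fell (median log2 fold change 0.05), near the 25.9% and 28.6% of all tested genes. Sap30, a subunit of the SIN3A complex, had 28.0 and 31.6 CPM in MK2, against 7.46 and 10.2 CPM in MK1, a log2 fold change of 1.76 ± 0.18 (SE; edgeR adjusted p = 4.56e-04). The acetyltransferase gene Kat2b had a log2 fold change of -0.54 and lost its call without MK1 replicate 1 (edgeR adjusted p = 0.0576). Crebbp, which encodes the coactivator CBP, was uneven, with 56.7 and 31.4 CPM in MK2, against 27.3 and 26.0 CPM in MK1, and lost its call with library-size (edgeR adjusted p = 0.0538) or upper-quartile scaling (0.0614), with a minimum count of 50 (0.0508), and without MK1 replicate 1 (0.178), MK1 replicate 2 (0.198) or MK2 replicate 1 (0.179). Chosen after their values were seen, Ctbp1 (0.34) also rose, and Hdac1 (-0.48) and Ep300 (-0.54) fell. With MK1 replicate 1 left out, 1 cofactor gene rose and 1 fell, and without MK1 replicate 2, 1 rose.

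Of 10 genes for ubiquitin ligases and deubiquitinases of KLF proteins, 4 rose and 1 fell (median 0.26), against 25.9% and 28.6% of all tested genes. Usp10, a deubiquitinase reported to stabilise KLF4, had 165 and 161 CPM in MK2, against 82.5 and 81.8 CPM in MK1 (log2 fold change 0.99 ± 0.10 SE, edgeR adjusted p = 3.70e-04). Itch, a ligase of KLF10, had 118 and 111 CPM in MK2, against 72.6 and 71.8 CPM in MK1 (log2 fold change 0.67). Fbxo32, the ligase subunit atrogin-1, had 11.6 and 18.8 CPM in MK2, against 32.3 and 34.6 CPM in MK1 (log2 fold change -1.14). Chosen after their values were seen, Wwp1 (0.39) and Smurf1 (0.60) also rose. With MK1 replicate 1 or MK1 replicate 2 left out, the count that rose was 2. RNA levels say nothing of KLF protein levels, which were not measured.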
